A study of Mus musculus with 12 samples.

Results

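Interferon-stimulated antiviral effectors are genes that cells transcribe after type I interferon binds its receptor, and whose products act on viral RNA, viral protein synthesis or virus assembly. The 10 genes described here (Ifit1, Ifit2, Ifit3, Ifi27, Ifi35, Ifi44, Isg15, Oas2, Oasl1 and Mx1) were picked by symbol, and 10 of 10 were found among the 750 genes of the deposited nCounter table. Their mRNA was counted in 12 mouse mammary tumors, 3 in each of 4 treatment groups, all harvested 3 days after treatment began. The tumors were of a triple-negative breast cancer model, K14-Cre with floxed Brca1 f/f and Trp53 f/f, in which Cre under the keratin 14 promoter deletes both genes in epithelium, so every group including vehicle lacked them in its tumor cells. Tumor chunks had been transplanted into the mammary fat pads of immunocompetent syngeneic FVB/129P2 mice. Whether the chunks came from 1 donor tumor or from several is not given in the sources used here.

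Vehicle mice (tumors 1269, 1529 and 1536) were given DMSO in saline into the peritoneum and saline into the tumor. ADU-S100 mice (tumors 1506, 1512 and 1513) received 1 intratumoral injection of 50 μg of this cyclic dinucleotide, an agonist of the DNA sensing adaptor STING, in 40 μl on the first day, with intraperitoneal DMSO. Olaparib mice (tumors 1510, 1517 and 1521) received this PARP inhibitor into the peritoneum at 50 mg/kg daily, with intratumoral saline. Combination mice (tumors 1251, 1270 and 1539) received both drugs. The comparisons address whether either drug alone, or only both together, went with higher effector mRNA.

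When STING or an RNA sensor is engaged, TBK1 and IRF3 switch on interferon-β. Secreted interferon then signals through IFNAR1 and IFNAR2, the kinases JAK1 and TYK2, and a complex of transcription factors. That complex binds interferon-stimulated response elements in promoters, which are built around repeats of the letters GAAA, and most of the effectors are among its classical targets. In a tumor, both cancer cells and infiltrating leukocytes can answer to interferon in this way.

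The promoters that carry this element are shown first because it is the one sequence feature by which the effectors are thought to be switched on together. Promoter windows of 300 bases (250 before to 50 after a RefSeq gene start, build GRCm38.p6) were searched on both strands for GAAANNGAAA, whose reverse complement is TTTCNNTTTC. Of the effectors, 7 had an entry, and Ifit2 had more than 1. Ifi27, Oas2 and Mx1 had none. For Ifit2, Ifit3 and Oasl1 the start of the entry lay downstream of the start listed for the whole gene. The Ifit3 window, from 34583279, began past that start (34583119). Distances below are to the start of the entry. The motif was found in Ifit1, Ifit3 and Isg15, that is 3 of 7 (42.9%), and these letters were not in the windows of Ifit2, Ifi35, Ifi44 and Oasl1. For comparison, 1131 of 32851 promoters of the RefSeq table (3.44%), 47 of 508 tested genes with an entry (9.25%) and 7 of 13 other interferon-induced effectors tested (53.8%) held it. Each sequence below is written 5′ to 3′ along the strand of its gene, with the matched letters in capitals.

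Ifit1, plus strand of chr19:34640775-34640804, match beginning 104 bases before the start: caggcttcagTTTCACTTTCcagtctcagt
Ifit1, plus strand of chr19:34640794-34640823, 85 bases before the start: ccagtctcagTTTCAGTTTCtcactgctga
Ifit3, plus strand of chr19:34583363-34583392, 156 bases before the start: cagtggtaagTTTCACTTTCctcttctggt
Ifit3, plus strand of chr19:34583397-34583426, 122 bases before the start: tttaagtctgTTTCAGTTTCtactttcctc
Isg15, minus strand of chr4:156200871-156200900, 78 bases before the start, with 3 overlapping matches: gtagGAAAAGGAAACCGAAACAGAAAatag

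Ifit1 and Ifit3 each held 2 separate matches on the reverse strand, while Isg15 held 3 that overlap in one run on the forward strand. A match is a description of these letters and not of bound protein, which was not measured.

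All values below are normalized mRNA counts, on which color-coded probes bound to 100 ng of tumor RNA are counted singly and then scaled by the authors against positive controls and housekeeping genes. The scaling differed greatly between tumors. Counts recovered from the deposited values summed to between 106206 (olaparib tumor 1517) and 1519471 (vehicle tumor 1269), and the factor by which each count had been multiplied ranged 17.8-fold, from 0.589 in olaparib tumor 1521 to 10.5 in 1517. The lowest recovered count of any effector other than Mx1 was 33. The epithelial markers Epcam, Cdh1 and Muc1 were present in every tumor, with a summed normalized count of 10802 to 22177. In bulk tumor RNA, fewer cells that express a gene and less of its RNA per cell cannot be told apart. Fold changes are given as log2 differences between group means of log2(normalized count + 1) from 1 limma fit over the 12 tumors. Genes at 20 or more in at least 3 tumors entered the fit, 689 in all and 9 of the 10 effectors. A p-value is called adjusted after Benjamini-Hochberg correction across those 689 genes, and 0.05 is the threshold. The fit uses 1 spread per gene, pooled over the 4 groups of 3 tumors and moderated across genes, so that a gene has the same standard error in each comparison of 2 groups, also where its spread differed between them.

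**Figure D1:**
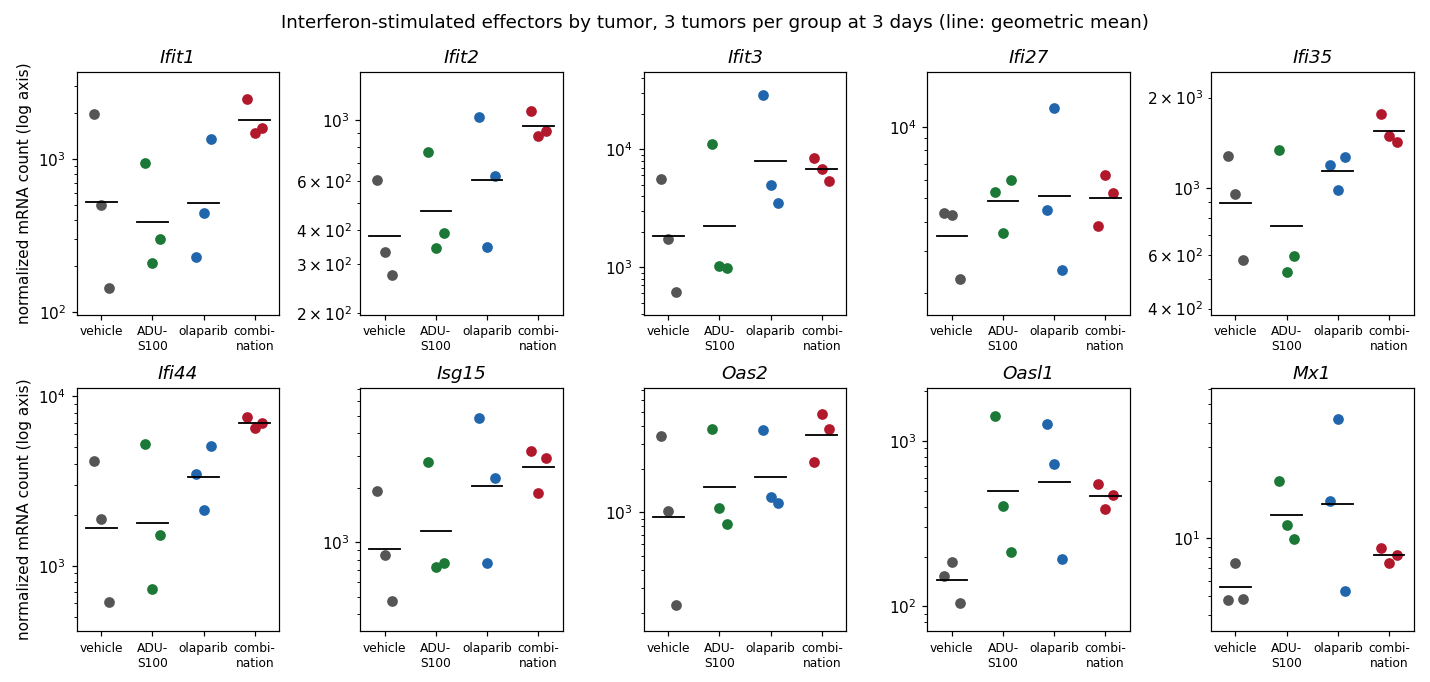
Normalized mRNA count (log axis, own range in each panel) of the 10 effectors in each of the 12 tumors, with a point per tumor and a line at each group's geometric mean. The 3 combination tumors lie close together in most panels, while 1 vehicle tumor, 1 ADU-S100 tumor and 1 olaparib tumor reach far above the lowest of their groups.

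The IFIT proteins bind viral RNA that lacks the marks of host mRNA and block its translation, and their genes sit side by side on chromosome 19. Ifit1 was counted at 1964, 500 and 143 in the vehicle tumors, at 946, 208 and 300 after ADU-S100, at 228, 440 and 1345 after olaparib, and at 2485, 1489 and 1599 after the combination (tumors in the order of their groups as listed, for this and the other genes). Every combination tumor was above every tumor given a single drug, but vehicle tumor 1269 lay within the range of the combination tumors. The log2 fold change was 1.79 ± 0.94 (SE) for the combination against vehicle (adjusted p = 0.673), 2.21 ± 0.94 against ADU-S100 (adjusted p = 0.492) and 1.82 ± 0.94 against olaparib (adjusted p = 0.595). Either drug alone gave values near those of vehicle, -0.42 ± 0.94 for ADU-S100 and -0.02 ± 0.94 for olaparib. Both of these change sign, to 0.10 and 0.50, when the series of tumor numbers (12 or 15) is entered as a covariate.

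Ifit2 had a narrower range, with 608, 332 and 274 in vehicle, 769, 344 and 391 after ADU-S100, 1031, 346 and 628 after olaparib, and 1077, 879 and 913 after the combination. All combination tumors lay above all vehicle and all ADU-S100 tumors, whereas the olaparib group overlapped with each of the others. The combination against vehicle gave 1.32 ± 0.50 (adjusted p = 0.472).

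Ifit3 varied most, 46.3-fold from its lowest to its highest tumor. Vehicle tumors held 5592, 1739 and 622, ADU-S100 tumors 11160, 1026 and 976, olaparib tumors 28772, 4988 and 3481, and combination tumors 8481, 6782 and 5333. A single olaparib tumor, 1510, stood far above the rest, and ADU-S100 tumor 1506 was the next highest. The log2 fold change against vehicle was 2.12 ± 1.09 for olaparib (adjusted p = 0.582) and 1.89 ± 1.09 for the combination (adjusted p = 0.705), and the olaparib and combination groups overlapped. Mouse Ifit3 has a close paralog, Ifit3b, and which of their transcripts the probe binds is not given in the sources used here.

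Isg15 encodes a ubiquitin-like protein that interferon-treated cells attach to many targets and also secrete. Its counts were 1910, 852 and 472 in vehicle, 2766, 731 and 768 after ADU-S100, 4859, 765 and 2275 after olaparib, and 3173, 1871 and 2915 after the combination. The same ADU-S100 tumor (1506) and olaparib tumor (1510) were the high ones of their groups, and no group was separate from another. Against vehicle, the log2 fold change was 0.34 ± 0.76 for ADU-S100, 1.15 ± 0.76 for olaparib and 1.50 ± 0.76 for the combination (adjusted p = 0.948, 0.59 and 0.658).

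The oligoadenylate synthetase family is represented by Oas2, which on sensing double-stranded RNA makes the messenger that activates RNase L, and by Oasl1, a family member that lacks this activity and is known in mice as a brake on translation of Irf7 mRNA. Oas2 was counted at 3401, 1018 and 227 in vehicle, 3791, 1067 and 826 after ADU-S100, 3711, 1268 and 1154 after olaparib, and 2224, 4801 and 3761 after the combination. Here too 1 tumor of each of the first 3 groups reached the range of the combination tumors and the others lay lower, and the combination against vehicle gave 1.89 ± 0.92 (adjusted p = 0.652).

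Oasl1 showed a pattern of its own. Its counts were 152, 186 and 105 in vehicle, 1407, 405 and 214 after ADU-S100, 1270, 723 and 192 after olaparib, and 546, 385 and 468 after the combination. Each of the 9 treated tumors lay above all 3 vehicle tumors, and Oasl1 was the only effector for which this held. The margin was small for olaparib tumor 1521, at 192 beside 186 in vehicle tumor 1529. Of all 689 genes, 9 (1.31%) separated the treated tumors from vehicle in this direction. Its log2 fold change against vehicle was 1.78 ± 0.76 for ADU-S100, 1.96 ± 0.76 for olaparib and 1.68 ± 0.76 for the combination (adjusted p = 0.809, 0.577 and 0.619). The combination differed from the single drugs by -0.10 ± 0.76 (ADU-S100, adjusted p = 0.948) and -0.28 ± 0.76 (olaparib, adjusted p = 0.901). The first of these is 0.10 when each tumor is scaled to the same median. The interaction (the ADU-S100 difference in olaparib-treated mice less that in mice without olaparib) was -2.06 ± 1.07 (adjusted p = 0.439). Without olaparib tumor 1521, the olaparib against vehicle value of Oasl1 became 2.73 and its adjusted p 0.044, the one call of an effector under any alternative. In that setting 55 of 689 genes (7.98%) passed the threshold. Its ADU-S100 value was 1.03 without ADU-S100 tumor 1506, and its olaparib value 1.37 without olaparib tumor 1510. With the log2 scaling factor as covariate, Oasl1 gave 1.16 for ADU-S100, 1.24 for olaparib and 1.74 for the combination.

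Ifi35 and Ifi44 encode interferon-induced proteins, the first known to bind the signaling adaptor NMI and the second a cytoplasmic protein with antiviral activity. Ifi44 was counted at 4140, 1885 and 606 in vehicle, 5218, 731 and 1511 after ADU-S100, 3468, 2138 and 5110 after olaparib, and 7587, 6501 and 6984 after the combination. The combination tumors were above all 9 other tumors. The log2 fold change of the combination was 2.06 ± 0.78 against vehicle (adjusted p = 0.472), the highest of the effectors, 1.97 ± 0.78 against ADU-S100 (adjusted p = 0.492) and 1.06 ± 0.78 against olaparib (adjusted p = 0.663).

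Ifi35 varied less, with 1282, 959 and 578 in vehicle, 1336, 527 and 596 after ADU-S100, 1198, 985 and 1267 after olaparib, and 1761, 1494 and 1421 after the combination. Again the combination tumors lay above all others, by 0.80 ± 0.44 against vehicle (adjusted p = 0.705) and 1.05 ± 0.44 against ADU-S100 (adjusted p = 0.492). The ADU-S100 tumors averaged below vehicle by a log2 fold change of -0.25 ± 0.44.

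Ifi27, whose product lies in mitochondrial and nuclear membranes, differed from the rest. Its counts were 4340, 4270 and 2294 in vehicle, 5338, 3588 and 5994 after ADU-S100, 4471, 12030 and 2510 after olaparib, and 3842, 6256 and 5276 after the combination. No group was separate from another, and the log2 fold change against vehicle was between 0.48 and 0.56 (SE 0.55) for all 3 treatments. The high olaparib tumor was 1517, which had the lowest recovered total and the largest scaling factor, and not 1510. Across the 12 tumors the log2 value of Ifi27 correlated with log2 of the factor (Pearson r = 0.73, permutation p = 0.0104, adjusted over 689 genes 0.0245, Spearman rho = 0.55, p = 0.0703), and r was 0.33 without the 2 tumors whose factors lay farthest from the median. The other tested effectors had r between -0.37 (Ifit1) and 0.59 (Oasl1), where the median over all genes was 0.59. For Oasl1 the permutation p of r was 0.0388 (adjusted 0.0713). Its rank correlation was the higher (Spearman rho = 0.67, permutation p = 0.02), and its r was 0.49 without the same 2 tumors.

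Mx1 encodes a dynamin-like GTPase that blocks influenza virus, and most inbred laboratory mouse strains carry a defective copy of it. It was barely counted here and did not enter the fit: its normalized count was 4.77, 7.43 and 4.85 in vehicle, 19.9, 11.8 and 9.99 after ADU-S100, 15.6, 41.9 and 5.3 after olaparib, and 8.91, 7.42 and 8.2 after the combination. These stand for only 4 to 11 recovered counts per tumor, and the value was highest in tumor 1517, where each count was multiplied by 10.5. No order of the groups can be read from it.

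Over the 9 tested effectors, 0 passed the adjusted threshold in any of the 8 comparisons, and so did 0 of all 689 genes (0%). The median log2 fold change of the effectors against vehicle was 0.30 for ADU-S100, 0.93 for olaparib and 1.68 for the combination, beside 0.44, 0.45 and 0.21 over all genes. The ADU-S100 median thus lay below that of the panel, and it was -0.11 when all tumors were brought to a common median, which turned the sign for Ifit2, Ifit3, Ifi44 and Isg15. The olaparib and combination medians were 0.58 and 1.47 on that scale. The order of these medians also depended on the series of tumor numbers, since vehicle tumor 1269 and combination tumors 1251 and 1270 are numbered 12 and the other 9 tumors 15. With the number series as a covariate they were 1.33 for olaparib and 1.27 for the combination, and among the tumors numbered 15 alone, with 1 combination tumor, 1.65 and 2.20.

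**Figure D2:**
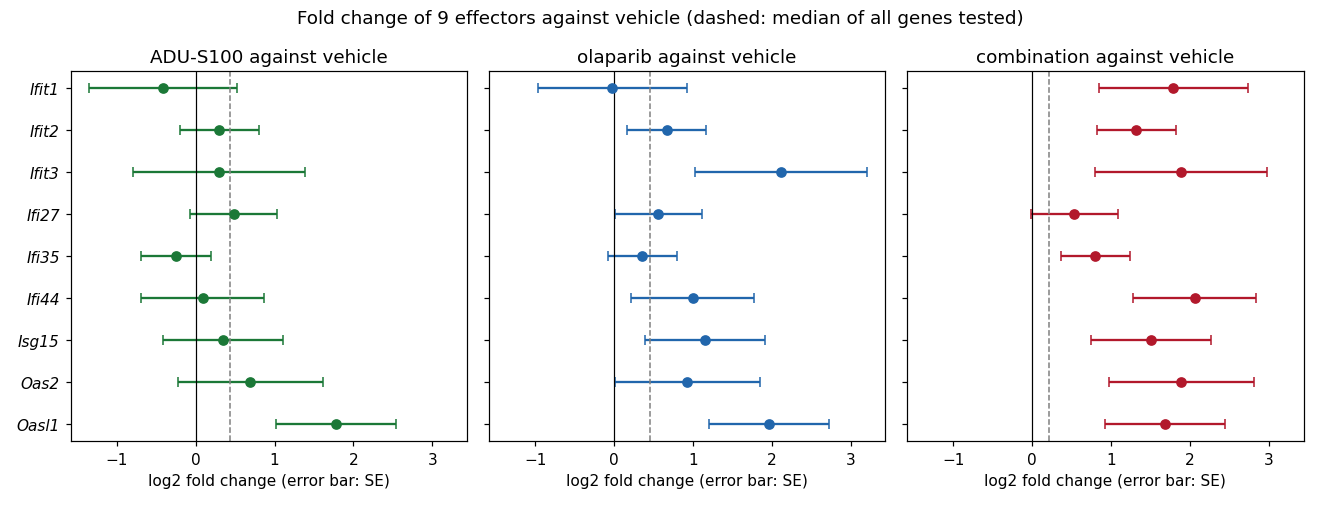
Log2 fold change against vehicle (point, with its SE as the bar) of the 9 tested effectors for ADU-S100, olaparib and the combination, with a dashed line at the median of all 689 genes. The effectors straddle the dashed line for ADU-S100, and all lie to its right for the combination, between 0.53 (Ifi27) and 2.06 (Ifi44).

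For the combination against vehicle, 9 of 9 effectors had a positive value, beside 450 of 689 genes, and at an unadjusted p under 0.05 the count was 3 of 9 (Ifi44, Ifit2 and Oasl1), where 52 of 689 genes (7.55%) were higher at that level. Complete separation, with all combination tumors above all vehicle tumors, was seen for 4 of 9 effectors (Ifit2, Ifi35, Ifi44 and Oasl1) and for 127 of 689 genes (18.4%). The value rests in part on how the vehicle tumors differ. Vehicle tumor 1536 was the lowest of all 12 for 8 of the 9 tested effectors, and 1269 was among the 6 highest for 6 of the 9. Without 1536 the median of the effectors for the combination against vehicle was 1.02, and without 1269 it was 2.03.

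For ADU-S100 against vehicle, 7 of 9 effectors were positive, beside 539 of 689 genes, and Oasl1 was the single one under an unadjusted p of 0.05, where 32 of 689 genes (4.64%) were higher at that level. It was also the single one that separated the groups (1 of 9, beside 96 of 689 genes, 13.9%). The median was -0.32 without vehicle tumor 1536 and 0.75 without 1269, and 0.54 with the number series as a covariate. Tumor 1506 set much of the group's level, since it was among the 6 highest tumors for 9 of the 9 effectors, while 1512 and 1513 were so for 1 each. For olaparib against vehicle, 8 of 9 were positive, beside 514 of 689 genes, again with Oasl1 as the single one under an unadjusted p of 0.05 (40 genes, 5.81%) and the single one to separate the groups (26 genes, 3.77%). The olaparib median ranged from 0.27 without vehicle tumor 1536 to 1.65 without 1269.

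Compared with ADU-S100 alone, the combination gave a median of 1.16 over the effectors, against -0.22 over all genes. At an unadjusted p under 0.05, 3 of 9 were higher (Ifit1, Ifi35 and Ifi44), beside 31 of 689 genes (4.5%), and 4 of 9 separated the groups (these 3 and Ifit2), beside 72 genes (10.4%). The median was 1.79 without ADU-S100 tumor 1506, and 0.65 with the number series as a covariate. Compared with olaparib alone, the median was 0.44, against -0.15 over all genes. Here 0 of 9 were below an unadjusted p of 0.05 (31 genes higher, 4.5%), and 3 of 9 (Ifit1, Ifi35 and Ifi44) separated the groups, beside 76 genes (11%). That median was 0.97 without olaparib tumor 1510 and 0.09 with the number series as a covariate. ADU-S100 against olaparib gave a median of -0.40 with 0 of 9 effectors positive, beside 0.01 and 355 of 689 genes, and the median was -1.03 without ADU-S100 tumor 1506 and -0.15 without 1512. These comparisons share tumors, so their values are not separate evidence.

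The spread within groups also differed. The highest over the lowest tumor of a group was 4.04-fold at the median of the 9 effectors in vehicle, 4.54-fold after ADU-S100 and 4.79-fold after olaparib, and 1.59-fold after the combination. Over all 689 genes the same medians were 2.35, 2.37, 4.23 and 1.45. With each tumor scaled to the same median, the effectors gave 4.39, 2.11, 6.35 and 1.57 and all genes 2.25, 2.06, 3.16 and 1.47, so that the ADU-S100 group was then narrower than vehicle. The combination was the narrowest group on both scales, for the effectors as for all genes, and its 3 recovered totals were also alike, with scaling factors of 0.81 to 0.824. Whether depth has a part in this was not tested.

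Levels of the effectors were then compared over the tumors. Among the 36 pairs of the 9 tested effectors, Pearson's r of the log2 values over 12 tumors had a median of 0.71, from 0.00 to 0.96, where the median over all pairs of the 689 genes was 0.30. In 2-sided permutation tests with 100000 resamples, adjusted over the 6156 pairs of an effector with any tested gene, 15 of the 36 pairs (41.7%) were below 0.05 by Pearson's r and 4 (11.1%) by Spearman's rho. Of all 6156 pairs, 202 (3.28%) were below it by Pearson's r and 64 (1.04%) by Spearman's rho. The closest pair was Ifi35 and Ifi44 (r = 0.96, rho = 0.98, permutation p = 1e-05 for both, the smallest the resampling can give, adjusted 0.00616 and 0.00879), and r was 0.93 without the 2 tumors farthest from the median of Ifi35. Ifit2 and Isg15 followed (r = 0.96, permutation p = 3e-05, adjusted 0.00839, rho = 0.91, p = 0.00014, adjusted 0.0246), with r = 0.94 without their 2 farthest tumors.

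**Figure D3:**
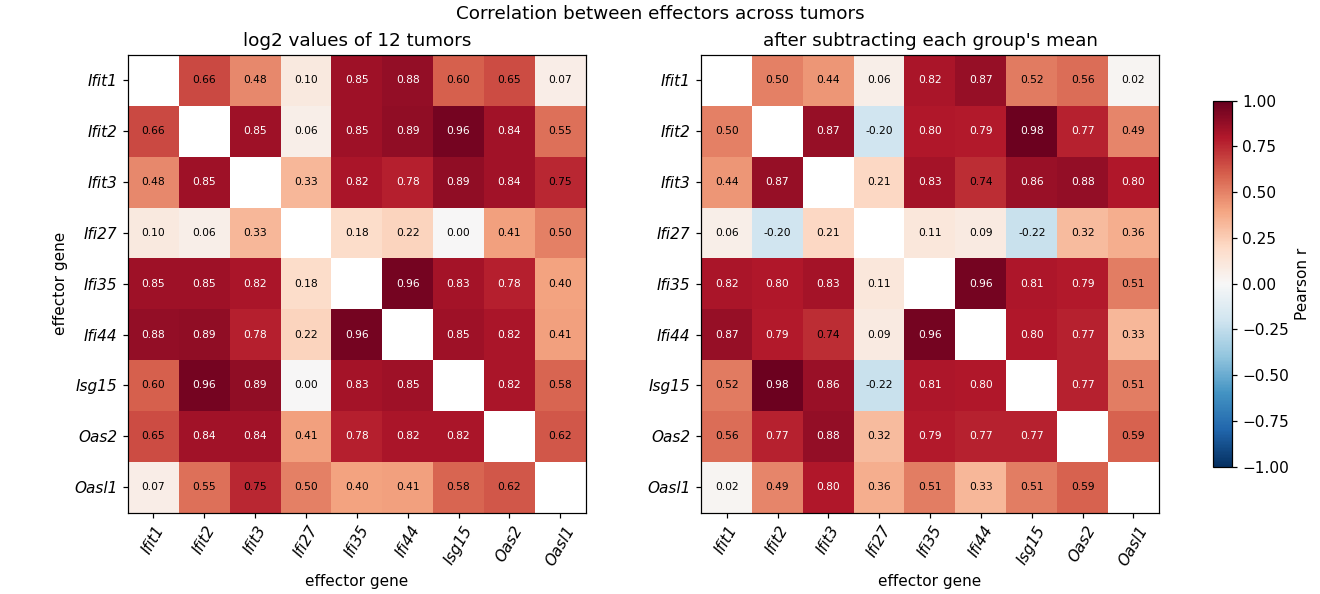
Pearson's r between the log2 normalized counts of each pair of the 9 tested effectors over 12 tumors, as measured (left) and after subtracting the mean of each treatment group (right). All pairs among Ifit2, Ifit3, Ifi35, Ifi44, Isg15 and Oas2 are above 0.7 in both panels, while the row of Ifi27 stays pale.

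After subtracting the group means, the median over the 36 pairs was 0.67 (0.36 over all gene pairs). It was 0.70 after scaling each tumor to the same median, where all gene pairs had a median of 0.04, and 0.77 within the 9 tumors whose numbers begin with 15 (0.35 over all gene pairs). Without the 2 farthest tumors of each pair, the median was 0.54. The median r of an effector with the others was lowest for Ifi27 (0.20) and Oasl1 (0.53). It was 0.62 for Ifit1 and between 0.80 and 0.84 for the other 6. No pair of Ifi27 or of Oasl1 with another effector was below 0.05 after adjustment by either measure, and the lowest adjusted p by Pearson's r were 0.355 and 0.0911 in the permutation tests. Ifit1 and Oasl1 had an r of 0.07 with each other. Ifit1 went with Ifi44 (0.88) and Ifi35 (0.85), and Oasl1 with Ifit3 (0.75).

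To set the tumors in order, the log2 values of each of the 9 genes were centered and divided by their SD, and then averaged within a tumor. This level was 0.79, 0.69 and 0.70 in the combination tumors, 0.76, -0.95 and -0.74 after ADU-S100, 0.70, 0.01 and -0.01 after olaparib, and 0.26, -0.57 and -1.65 in vehicle. The top 5 tumors were thus the 3 combination tumors with ADU-S100 tumor 1506 and olaparib tumor 1510, lying between 0.69 and 0.79. The order depended on the scaling. With each tumor scaled to the same median, the combination tumors stayed between 0.67 and 0.78, the olaparib tumors 1510, 1517 and 1521 were at 0.79, -0.90 and 0.53, the ADU-S100 tumors 1506, 1512 and 1513 at -0.18, -0.71 and -0.43, and the vehicle tumors 1269, 1529 and 1536 at 0.79, -1.01 and -1.06.

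Of the other 680 genes tested, those whose log2 values followed this mean level most closely over the 12 tumors included Irgm2, Zbp1, Ifi44l and Bst2, each with r = 0.96, where the median over the 680 genes was 0.16. Irgm2 is an interferon-inducible GTPase, ZBP1 a sensor of Z-form nucleic acid, Ifi44l a relative of Ifi44, and BST2 (tetherin) a surface protein that holds budding virions back. The level was also followed by Irf7 (0.93), a transcription factor that amplifies interferon production, and by the cytoplasmic RNA sensors Ddx58 (RIG-I, 0.86) and Ifih1 (MDA5, 0.82). It was followed less by Stat2 (0.69) and Tmem173 (STING, 0.64), and hardly by Ifnb1 (0.22), Ifnar1 (0.16) and Ifna1 (0.05). As the first 4 genes were taken for being among the most alike, these values are a description.

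The ligands were measured close to the lower limit. The normalized count of Ifnb1 was 9.7 to 13.6 in vehicle, 20 to 31.4 after ADU-S100, 12.4 to 52.4 after olaparib and 9.07 to 20.5 after the combination, from 5 to 25 recovered counts per tumor. Its log2 fold change against vehicle was 1.16 ± 0.54 for ADU-S100 (adjusted p = 0.809), 1.42 ± 0.54 for olaparib (adjusted p = 0.577) and 0.33 ± 0.54 for the combination (adjusted p = 0.989). For Ifna1 the same values were 1.39 ± 0.74, 1.78 ± 0.74 and 0.09 ± 0.74. Its recovered counts were alike in all groups. They were 8 to 14 in vehicle, 9 to 15 after ADU-S100, 11 to 17 after olaparib and 10 to 13 after the combination. At no more than 11.9 in vehicle and 10.7 after the combination, Ifna1 entered the fit only through ADU-S100 and olaparib tumors. Over the 5 interferon genes tested, the median was 1.16, 1.27 and -0.09. As for Mx1, no order of the groups is read from counts this low. The scaling factor that multiplies such low counts was 0.81 to 0.824 in the combination tumors and 1.43 to 2.85 in the ADU-S100 tumors. Its part in these fold changes was not tested.

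Among the other genes of the pathway, Irf7 was counted at 201 to 2201 in vehicle, 438 to 4022 after ADU-S100, 702 to 1464 after olaparib and 2460 to 3976 after the combination, so that the combination tumors lay above the vehicle and olaparib tumors and overlapped with those given ADU-S100. Its log2 fold change for the combination against vehicle was 2.20 ± 0.90 (adjusted p = 0.504), and that of Stat2 1.34 ± 0.74 (adjusted p = 0.702). Over the 12 genes of interferon signaling tested, 10 were positive against vehicle in each of the 3 treatments, where 539, 514 and 450 of all 689 genes were, with medians of 0.43 (ADU-S100), 0.44 (olaparib) and 0.73 (combination). The 3 receptor chains had medians of -0.05, 0.29 and 0.22, beside 0.44, 0.45 and 0.21 over all genes. The 12 sensing genes had medians of 0.23, 0.51 and 0.45. Ddx58 gave 1.02 ± 0.55 and Ifih1 0.98 ± 0.63 for the combination (adjusted p = 0.693 and 0.812), and Tmem173, through which ADU-S100 acts, 0.41 ± 0.36 (adjusted p = 0.949).

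Of the 16 other interferon-induced effectors of the panel tested, 13 were positive for ADU-S100, 16 for olaparib and 16 for the combination, with medians of 0.58, 1.17 and 1.32. Of all 689 genes, 539, 514 and 450 were positive in these comparisons. The combination was separated from vehicle by 9 of the 16, beside 127 of 689 genes (18.4%). Compared directly, the combination and olaparib gave a median of 0.01, with 8 genes higher and 8 lower. Bst2 gave 1.45 ± 0.60 for the combination (adjusted p = 0.504). Isg20, a nuclease that degrades viral RNA, gave 1.05 ± 0.38, 0.75 ± 0.38 and 0.71 ± 0.38 for ADU-S100, olaparib and the combination (adjusted p = 0.809, 0.582 and 0.686). The 4 interferon-induced chemokines (Cxcl9, Cxcl10, Cxcl11 and Ccl5) were positive in all 3 treatments, with medians of 1.52, 1.55 and 2.50, and 4 of 4 separated the combination from vehicle, again beside 18.4% of all genes. In each of these lists 0 genes passed the adjusted threshold.

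**Figure D4:**
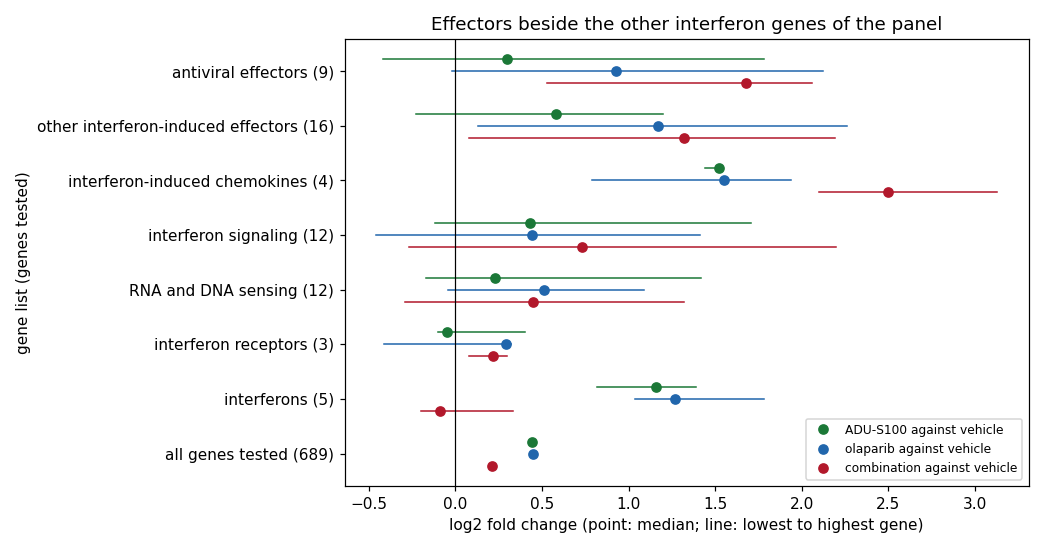
Log2 fold change against vehicle of gene lists of the interferon system for the 3 treatments, with a point at the median and a line from the lowest to the highest gene (no line for all 689 genes). The combination has the highest median for both effector lists, the chemokines and signaling. No order is read for the interferons, of which Ifnb1 and Ifna1 were at 5 to 25 recovered counts per tumor.

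Markers of the other cell types in these tumors were read beside the effectors. The summed normalized count of the 8 T cell markers measured was 103 to 242 in vehicle, 181 to 453 after ADU-S100, 146 to 734 after olaparib and 348 to 552 after the combination. Ptprc (CD45) and Itgb2 together gave 299 to 987, 555 to 1951, 382 to 817 and 787 to 817. The 4 dendritic cell markers summed to 110 to 169, 128 to 242, 148 to 398 and 197 to 349, and the 5 NK cell markers to 56 to 137, 127 to 587, 76 to 702 and 173 to 284. For T cells, dendritic cells and NK cells, the combination tumors lay above the vehicle tumors without overlap. So did the sum of Il3ra and Bst2 (4547 to 6389 beside 993 to 3713). Of single genes, 127 of 689 (18.4%) were separated in this direction.

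The 6 macrophage markers summed to 1538 to 5407 in vehicle, 2468 to 5278 after ADU-S100, 1927 to 4506 after olaparib and 2376 to 3056 after the combination. In the same order, the 5 neutrophil markers summed to 1018 to 2197, 1893 to 7706, 587 to 3354 and 1541 to 1711, and the 6 B cell markers to 35 to 94, 74 to 199, 39 to 356 and 76 to 126. Of plasmacytoid dendritic cells, the panel offered only Il3ra and Bst2, and the latter is itself induced by interferon. The 8 markers of stroma and vessels summed to 18778 to 97809 in vehicle, 37536 to 63849 after ADU-S100, 7384 to 43490 after olaparib and 16073 to 30695 after the combination. Their log2 fold change against vehicle was negative for 5 of 8 after ADU-S100 (median -0.11), 8 of 8 after olaparib (-1.07) and 8 of 8 after the combination (-1.03), with 0 past the adjusted threshold. None of these markers was at 0 recovered counts in any tumor, which alone does not show detection. The sums hold every marker measured, though only 7 of 8 T cell, 4 of 5 NK cell and 2 of 6 B cell markers passed the filter. Scaling factors with a 17.8-fold range multiply these counts too, and their part in the low sums was not tested.

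Some of these sums also varied with the effectors over the 12 tumors. Pearson's r of the log2 sum with the mean effector level, in 2-sided permutation tests adjusted over 10 marker lists, was 0.66 for T cells (p = 0.0202, adjusted 0.0932), 0.63 for dendritic cells (p = 0.028, adjusted 0.0932), 0.58 for epithelium (p = 0.0498, adjusted 0.102) and -0.58 for stroma and vessels (p = 0.0512, adjusted 0.102). Spearman's rho was 0.62, 0.68, 0.48 and -0.52 (permutation p = 0.037, 0.0186, 0.123 and 0.0894, adjusted 0.123, 0.0931, 0.205 and 0.179), and r without the 2 farthest tumors 0.65, 0.72, 0.21 and -0.52. The epithelial value thus rests on those tumors. After subtracting the group means, r was 0.43, 0.34, 0.44 and -0.33. With each tumor scaled to the same median it was 0.57, 0.65, 0.64 and -0.74, the last with an adjusted permutation p of 0.0244. The pair Il3ra and Bst2 gave 0.95 (permutation p = 1e-05, adjusted 0.0001, rho = 0.90, p = 0.00013, adjusted 0.0013, r = 0.93 without the 2 farthest tumors). That sum was almost all Bst2, which alone was 892 to 3681 in vehicle where the sum was 993 to 3713. Bst2 was named above for its likeness to the effector level, so these p-values are not a separate test. Il3ra itself gave log2 fold changes against vehicle of 1.14 (ADU-S100), 0.53 (olaparib) and -0.88 (combination). The other 5 lists lay between -0.26 and 0.47, with adjusted permutation p of 0.201 or more. The part of cell composition in the effector values was not tested.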

How the data were processed

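The deposited values are a linear signal, namely nCounter counts that the authors scaled with nSolver 4.0 after quality control and background correction, against positive controls and housekeeping genes (by their geometric mean). Per the study's methods, counts under those of negative controls had been removed. A floor of 1 was found in 12 values. Above it, every value was a whole multiple of 1 step per tumor (within 0.01 of a count), which gave the factor and the recovered counts.

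Values were analyzed as log2(normalized count + 1) with limma 3.58.1 (lmFit, eBayes) in R 4.3.3, with 1 mean per group over 12 tumors and no covariate. Fits were tested on simulated data. Correlations used scipy 1.17.1 and numpy 2.4.6, and figures matplotlib 3.10.9. Gene symbols are as deposited. Promoters came from the RefSeq table. The named genes were the 10 effectors, a fixed set of pathway genes and the 5 genes most like the mean effector level, of which 1 is not reported here. The effectors, gene lists and marker lists were chosen with earlier results of these data known. The first 2 digits of the tumor numbers (12 in 3 tumors, 15 in 9) are not explained in the labels. No other column was left out.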

Additional observations from a re-analysis of the deposited data

How the results depend on the processing

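With 3 tumors a group and 0 genes past the threshold, the data give sizes rather than calls. Fold changes were recomputed under 24 settings, of which 12 left out 1 tumor, and correlations under 5. Of 49 effector fold changes followed, 32 kept their sign under every alternative run, and of the 216 alternative values for the combination against vehicle 0 changed sign. Many of these values could not change sign. An intensity trend, another filter, another test on the same values, or leaving out a tumor of a group not compared leaves a fold change as it was. The 2 planned edgeR alternatives were not run. The deposited values are scaled, and a search for whole counts that starts from each tumor's lowest value succeeded in 5 of 12 tumors, while the step used here gave whole counts in all 12. No paired analysis was possible because no tumor number occurs in more than 1 group. The correlation within tumors numbered 15, and median scaling of the spread within groups and of the marker sums, were added after seeing the data. Causes were not tested unless stated.

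Of all genes, the combination against vehicle called 2 in a fit on the compared groups, 3 by the methods' t-test and 4 with the log2 factor as covariate, and the combination against ADU-S100 called 1 with pseudocount 10, a filter at 50, median scaling, quantile normalization or an intensity trend. Leaving out 1 tumor, calls ranged from 0 to 55 (olaparib against vehicle), 0 to 54 (combination against olaparib), 0 to 86 (interaction) and 0 to 1 (combination against ADU-S100). The 3 highest came without olaparib tumor 1521, which has the smallest scaling factor, and the last without ADU-S100 tumor 1506. Effector calls ranged from 0 to 1 for olaparib against vehicle and were 0 elsewhere. The median interaction of the effectors was 0.27, -0.66 with the number series as covariate, and -0.52 (without vehicle tumor 1269) to 0.73 when 1 tumor was left out.

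Signs turned as follows, as log2 fold changes. For ADU-S100 against vehicle with median scaling, Ifit2 was -0.11, Ifit3 -0.12, Ifi44 -0.32 (-0.01 with quantile normalization) and Isg15 -0.07. Ifit1 was 0.10 with the number series and 0.54 in tumors numbered 15 alone, Ifi35 0.01 in the latter, and Ifi27 -0.11 with the factor. Leaving out 1 tumor gave Ifit1 -1.34 to 0.54, Ifit2 -0.05 to 0.64, Ifit3 -0.86 to 1.10, Ifi35 -0.67 to 0.01, Ifi44 -0.68 to 0.75, Isg15 -0.29 to 0.87 and Oas2 -0.32 to 1.63. For olaparib against vehicle, Ifit1 was 0.50 with the number series, 0.94 in tumors numbered 15 alone and 0.28 with the factor, and Ifi27 -0.13 with the factor. Leaving out 1 tumor gave Ifit1 -0.95 to 0.94, Ifi27 -0.06 to 1.07 and Oas2 -0.08 to 1.87. For the combination against ADU-S100, Ifi27 was -0.13 with quantile normalization and -0.07 with the number series (-0.17 to 0.24 leaving out 1 tumor), and Oasl1 0.10 with median scaling and 0.58 with the factor (-0.71 to 0.65). For the combination against olaparib, Ifi27 was 0.11 with median scaling, 0.04 in tumors numbered 15 alone and 0.71 with the factor (-0.55 to 0.58), Isg15 -0.10 with the number series and -0.09 with the factor (-0.36 to 0.97), Ifit3 0.08 (-0.83 to 0.69) and Oasl1 0.51 with the factor (-1.05 to 0.31).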
